A study of Homo sapiens with 4 samples.

Results

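The genes described here encode the machinery that brings secretory proteins into the endoplasmic reticulum (ER) and the coats that carry them between the ER and the Golgi. They were fixed by name, but the list was chosen with earlier results of these data known. The list held 48 names, of which SEC12 is an older name of PREB, so 47 genes were followed, out of 60682 in the count table and 14864 that passed the low-count filter. All 47 were found in the table and all 47 passed the filter. They comprise the signal recognition particle (SRP, 6 genes), its receptor (2), the translocon (6), the translocon-associated protein complex (TRAP, 4), signal peptidase (5), the COPII coat (12), the COPI coat (8) and 4 receptors for cargo. Messenger RNA levels came from bulk RNA-seq of JJN3, an established multiple myeloma cell line grown in culture. Both groups were transduced with a short hairpin RNA, directed against the kinase WNK1 (shWNK1, 2 libraries) or the NS hairpin that served as the control (2 libraries). The hairpin sequences, the time after transduction and the relation of the 2 replicates to separate cultures are not given in the sources used here. The p-values therefore reflect library-to-library spread, which can be technical.

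A myeloma cell is a malignant plasma cell, a cell type built around the secretion of antibody. SRP binds the signal peptide of a growing secretory protein as it leaves the ribosome and docks at the SRP receptor on the ER membrane. The chain then passes through the SEC61 channel, TRAP assists, and signal peptidase removes the signal peptide. Folded proteins leave the ER in vesicles coated with COPII, and COPI vesicles return escaped ER proteins and recycling receptors from the Golgi. Lectin and KDEL receptors select cargo for these vesicles.

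The 4 libraries held 16973521 to 20164122 counts. WNK1 stood at 18.6 and 19.6 CPM after its own hairpin and at 288 and 245 CPM after NS, the direction the labels call for. CPM is the count per 1000000 of the scaled library size. Of 8 plasma cell markers all were detected, with a summed level of 1976 to 1984 CPM in shWNK1 and 2190 to 2211 CPM in NS libraries. Of these, 5 fell (SDC1, CD38, IRF4, XBP1 and MZB1), 2 rose (PRDM1 and JCHAIN) and TNFRSF17 was not called, with log2 fold changes from -1.32 for SDC1, which encodes the surface proteoglycan CD138, to 0.25 for JCHAIN, the joining chain of secreted antibody. Markers of T and NK cells (7 genes, 2 at 0 counts in every library) summed to 0.243 to 1.00 CPM, those of myeloid cells (5 genes, 3 at 0) to 0.344 to 0.821 CPM and those of erythroid cells (5 genes, 2 at 0) to 0.0973 to 0.886 CPM. Mature B-cell markers (5 genes, 2 at 0) summed to 3.15 and 3.21 CPM in shWNK1 and to 8.15 and 6.74 CPM in NS libraries, nearly all of it PAX5. The 6 stromal or epithelial markers summed to 120 to 135 CPM. Of these, EPCAM was at 109 to 126 CPM in all 4 libraries and was not called, and 2 collagen genes were at 0. KRT18 was at 7.80 and 8.27 CPM in shWNK1 and 10.6 and 11.9 CPM in NS libraries, and fell (log2 -0.49, edgeR adjusted p = 0.027). The part of these marker differences, which run in both directions, in the results on the members was not tested.

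Transcripts for entry into the ER were lower in shWNK1 cells for the most part. Most genes of the vesicle coats, as of all genes tested, were not called. Of the 23 genes of SRP, its receptor, the translocon, TRAP and signal peptidase, 14 fell and 3 rose, with a median log2 fold change of -0.26. Of the 20 COPII and COPI genes, 4 fell, 2 rose and 14 were not called, with a median of 0.02. Among the 4 cargo receptors 2 fell and 1 rose. Over all 47 genes, 20 fell, 6 rose and 21 were not called (adjusted p under 0.05 in edgeR, by its quasi-likelihood test with Benjamini-Hochberg adjustment over 14864 genes), with a median of -0.16. Over all genes tested 38.8% were called, 20.2% as falls and 18.5% as rises, with a median of 0.01. The members are well expressed, and well expressed genes are called more often. Among the 6584 genes with a mean at or above that of the lowest member, 32.2% fell and 22.6% rose, with a median of -0.04. Falls made up 42.6% of the members, 60.9% of the ER entry genes and 20.0% of the coat genes. The difference between ER entry and coat genes was not tested.

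The changes were small. LMAN1 was the sole member that was called with a change of at least 1.5-fold, against 7.16% of all genes tested that fell and 7.76% that rose by that much. None of the 47 passed a test against a fold change of 1.5 (edgeR), where 353 genes fell and 303 rose. Both shWNK1 libraries lay below both NS libraries for 26 members and above them for 9 (33.7% and 34.7% of all genes tested, 68.4% in all). In bulk samples, fewer cells of a type and less RNA per cell cannot be told apart. Without shWNK1 replicate 1, 8 ER entry genes fell and 2 rose, and without shWNK1 replicate 2, 9 fell and 1 rose. Without NS replicate 1 there were 16 falls and 2 rises, and without NS replicate 2 there were 13 and 3. For the coats, 1, 2, 4 and 5 genes fell and 0, 0, 5 and 1 rose when the same libraries were left out in that order. Of the 20 falls, 11 were called under each of the 12 alternatives that test for any change: SRP9, SRP72, SEC61B, SEC63, TRAM1, SSR1, SSR3, SPCS3, SEC13, KDELR2 and LMAN1. Of the 6 rises, that of SRP14 was.

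**Figure D1:**
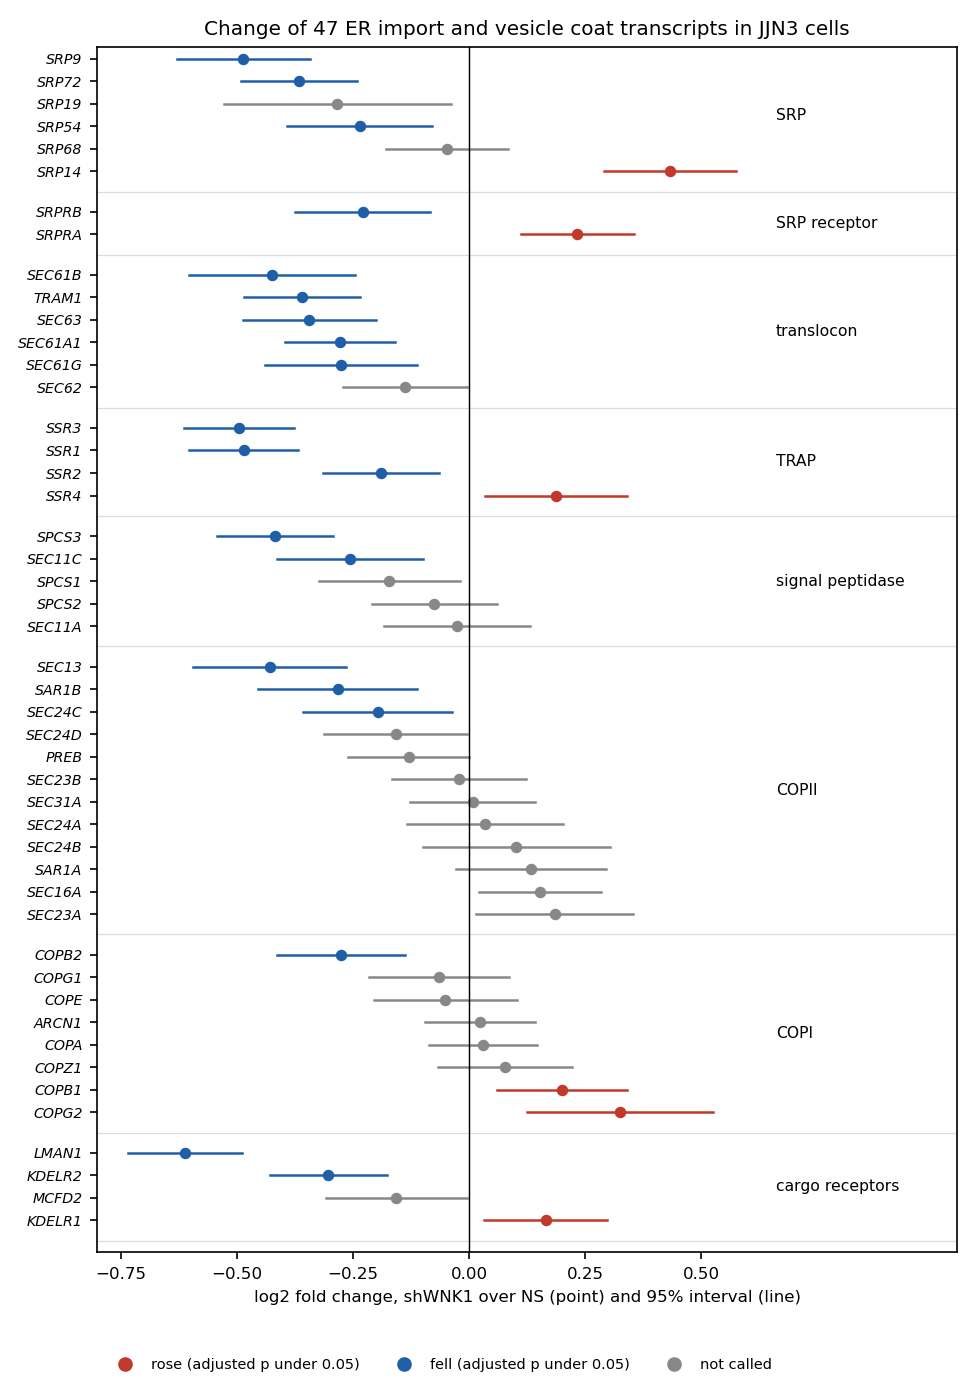
The log2 fold change of each of the 47 genes (horizontal axis, shWNK1 over NS) with its 95% interval, grouped by complex and coloured by call. Blue genes fell, red genes rose and grey genes were not called. LMAN1 lies lowest at -0.61 and SRP14 highest at 0.43, and the intervals of COPA, ARCN1 and SEC31A lie across 0.

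SRP is a ribonucleoprotein of 6 proteins on the 7SL RNA. Of its protein genes 3 fell, 1 rose and 2 were not called, with a median log2 fold change of -0.26. SRP9 and SRP14 form the heterodimer that slows elongation while the ribosome is brought to the ER, and their transcripts moved in opposite directions. SRP9 (hg38, as all gene positions here, chromosome 1, 225777813 to 225790468) stood at 100 and 90.4 CPM in the shWNK1 libraries and at 133 in each NS library. It fell by 0.49 in log2 units (SE 0.071, edgeR adjusted p = 1.3e-06). SRP14 (chromosome 15, 40035690 to 40039181) stood at 175 and 187 CPM in shWNK1 and at 125 and 144 CPM in NS libraries, and rose (log2 0.43, SE 0.070, edgeR adjusted p = 7.8e-06). For both genes the groups did not overlap, as was so for 68.4% of all genes tested. Per length (counts over exon length, scaled to a total of 1000000 in each library), SRP9 went from 204 to 151 and SRP14 from 223 to 312, so that the partners, near each other in NS cells, lay further apart in shWNK1 cells.

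SRP72 and SRP68 bind each other on the larger domain of the particle. SRP72 fell (299 and 269 CPM in NS, 222 and 218 CPM in shWNK1; log2 -0.37, edgeR adjusted p = 1.3e-05). SRP68 stood at 143 and 148 CPM in shWNK1 and 147 and 154 CPM in NS libraries, with a 95% interval of the log2 change from -0.18 to 0.08. SRP54, the subunit that holds the signal peptide, fell by 0.24 (edgeR adjusted p = 0.014), a call that ended without shWNK1 replicate 1 (0.159) or shWNK1 replicate 2 (0.0979). SRP19, an assembly factor of the particle and the scarcest member per length (9.93 in NS cells), was at 27.2 and 23.4 CPM against 33.5 and 27.9 CPM (log2 -0.28, edgeR adjusted p = 0.061; 0.00503 without NS replicate 2). Of the 3 entries for the 7SL RNA, RN7SL1 fell (37.6 and 40.2 CPM against 48.7 and 55.6 CPM; log2 -0.42, edgeR adjusted p = 5.9e-04), RN7SL3 had 37 and 46 counts against 19 and 56, and RN7SL2 had 0 counts. Reads that fit several near-identical loci cannot be placed, so these levels are uncertain.

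The SRP receptor has a subunit that meets SRP and a small subunit that anchors it in the membrane. One rose while the other fell, and the median log2 fold change was 0.002. SRPRA, the subunit that meets SRP, stood at 284 and 300 CPM in shWNK1 and at 256 and 241 CPM in NS libraries. It rose (log2 0.23, SE 0.060, edgeR adjusted p = 0.0022). SRPRB, the membrane anchor, stood at 92.6 and 89.8 CPM in shWNK1 and at 105 and 109 CPM in NS libraries and fell by 0.23 (SE 0.071, edgeR adjusted p = 0.010). The rise of SRPRA was not called without shWNK1 replicate 2 (0.148), nor was the fall of SRPRB without shWNK1 replicate 1 (0.0883) or replicate 2 (0.151). Exons of SRPRB share 21.3% of their bases with other genes, chiefly on the opposite strand. Strand was not used in counting, and no option in the featureCounts call recorded with the table counts a read for several genes.

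Of the 6 translocon genes 5 fell and 0 rose, with a median log2 fold change of -0.31. Both shWNK1 libraries lay below both NS libraries for all 6, as they did for 33.7% of all genes tested. The same held for 2916 of the 6584 genes with a mean at or above that of the lowest member. TRAM1, a membrane protein that lies beside the channel (chromosome 8, 70573218 to 70608416), had the smallest p of the group. It stood at 201 and 189 CPM in shWNK1 and at 255 and 245 CPM in NS libraries, and fell by 0.36 in log2 units (SE 0.061, edgeR adjusted p = 1.5e-05). SEC63, the J-domain protein that recruits the chaperone BiP to the channel, stood at 97.2 and 103 CPM against 132 and 123 CPM (log2 -0.34, SE 0.070, edgeR adjusted p = 1.8e-04). The 3 channel subunits fell together, although their levels per length differ, at 311 for SEC61A1, 205 for SEC61B and 171 for SEC61G in NS cells. The pore subunit SEC61A1 went from 428 and 422 to 338 and 363 CPM (log2 -0.28), SEC61B from 66.8 and 79.4 to 56.1 and 52.9 CPM (log2 -0.42), and SEC61G from 85.2 and 100 to 76.5 CPM in both libraries (log2 -0.28). SEC62, the partner of SEC63 in import after translation, was at 133 and 127 CPM against 142 and 145 CPM and was not called (log2 -0.14, edgeR adjusted p = 0.097). Calls ended for SEC61A1 without shWNK1 replicate 1 (0.0765) and for SEC61G in the absence of shWNK1 replicate 1 (0.097), shWNK1 replicate 2 (0.081) or NS replicate 2 (0.141).

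TRAP, a complex of 4 membrane proteins next to the channel that aids the entry of many signal peptides, held the falls with the smallest p among the ER entry genes (3 of 4 fell, 1 rose). SSR3 (chromosome 3, 156540140 to 156555184) stood at 286 and 271 CPM in shWNK1 and 396 and 389 CPM in NS libraries, and fell 1.41-fold (log2 -0.49, SE 0.058, edgeR adjusted p = 2.7e-08). SSR1 (chromosome 6, 7268306 to 7347446) stood at 252 and 251 CPM in shWNK1 and 358 and 347 CPM in NS libraries, and fell likewise (log2 -0.49, SE 0.058, edgeR adjusted p = 3.6e-08). In both genes the groups were far apart beside the spread within them. SSR2 also fell (201 and 208 CPM in NS, 180 and 178 CPM in shWNK1; log2 -0.19, edgeR adjusted p = 0.014), a call that ended without shWNK1 replicate 1 (0.150) or replicate 2 (0.158). SSR4 was at 108 and 101 CPM against 86.3 and 97.3 CPM (log2 0.19, edgeR adjusted p = 0.047). That rise was lost under 8 of the 12 alternatives that test for any change, for example with DESeq2 (0.125), no filter (0.0801) and the fits that left out shWNK1 replicate 1 (0.364), shWNK1 replicate 2 (0.137) or NS replicate 1 (0.309). A named SSR4 pseudogene took counts equal to 4.11% of the gene's own, the highest such share among the members.

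Signal peptidase joins a catalytic subunit, SEC11A or SEC11C, with accessory subunits. Of its 5 genes 2 fell (40.0%, against 20.2% of all genes tested) and 0 rose, with a median log2 fold change of -0.17. Its gene with the strongest change was SPCS3, at 177 and 167 CPM in shWNK1 and 233 and 226 CPM in NS libraries, which fell by 0.42 in log2 units (SE 0.062, edgeR adjusted p = 1.6e-06). Of the catalytic paralogs, SEC11C, at 85.7 and 90.3 CPM against 97.2 and 113 CPM, fell by 0.26 (edgeR adjusted p = 0.0083), and SEC11A, at 92.4 and 105 CPM against 95.8 and 106 CPM, was not called (95% interval of the log2 change -0.18 to 0.13). SPCS1 and SPCS2 were not called (log2 -0.17 and -0.07), but both were called lower without NS replicate 1 (edgeR adjusted p = 3.8e-04 and 0.0135). The call on SEC11C ended in the absence of shWNK1 replicate 1 (0.180), shWNK1 replicate 2 (0.0522) or NS replicate 2 (0.153). Exons of SPCS1 share 56.6% of their bases with genes on the opposite strand, so its level is uncertain.

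**Figure D2:**
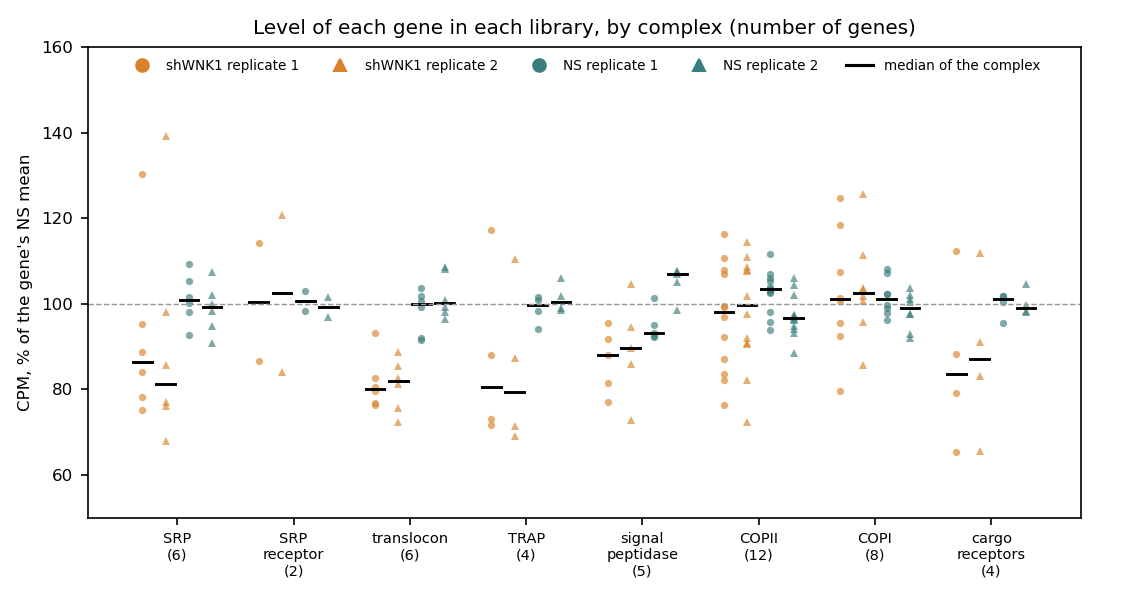
The level of each gene in each library as a percentage of that gene's mean in the NS libraries (vertical axis, starting at 50%), by complex, with circles and triangles for replicates 1 and 2 and black bars at the median of the complex. In shWNK1 libraries 1 and 2 the medians are 80.0% and 81.9% for the translocon and 80.5% and 79.3% for TRAP. They are 86.4% and 81.3% for SRP, 100% and 102% for its receptor, and 87.9% and 89.6% for signal peptidase. Those of the coats are 98.0% and 99.8% for COPII and 101% and 103% for COPI, and the cargo receptors are at 83.7% and 87.0%.

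Most COPII genes were not called, as was so for 9104 of the 14864 genes tested. The coat is started by PREB, the exchange factor that loads the GTPase SAR1 on the membrane. SEC23 and SEC24 then form the inner layer, in which SEC24 binds cargo, and SEC13 with SEC31 form the outer cage on sites organised by SEC16A. Of 12 genes 3 fell (25.0%, against 20.2% of all genes tested), 0 rose (against 18.5%) and 9 were not called. The median log2 fold change was -0.01. At an unadjusted p under 0.05 another 4 were apart from 0, in both directions, since the 95% intervals of PREB and SEC24D lay just below 0 and those of SEC16A and SEC23A just above it. SEC13 (chromosome 3, 10293131 to 10321112) had the strongest change, from 80.4 and 90.8 CPM in NS to 65.4 and 61.9 CPM in shWNK1 libraries (log2 -0.43, SE 0.081, edgeR adjusted p = 6.7e-05). Its cage partner SEC31A stood at 138 and 142 CPM in shWNK1 and 144 and 134 CPM in NS libraries, with a 95% interval of the log2 change from -0.13 to 0.14. SEC13 is also a subunit of the nuclear pore.

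SAR1B, one of a pair of SAR1 genes, fell from 65.8 and 62.3 CPM to 52.7 CPM in both shWNK1 libraries (log2 -0.28, edgeR adjusted p = 0.0075), a call lost when either shWNK1 library was left out (0.0922 and 0.0822). SAR1A was at 73.7 and 72.3 CPM in shWNK1 and 65.3 and 67.9 CPM in NS libraries and was not called (log2 0.13, edgeR adjusted p = 0.19). Among the cargo-binding SEC24 genes, SEC24C, the most abundant per length (62.1 in NS cells), was at 81.8 and 88.8 CPM in shWNK1 and 105 and 91.0 CPM in NS libraries (log2 -0.20, edgeR adjusted p = 0.045). This fall was lost under 7 of the 12 alternatives that test for any change, among them DESeq2 (0.109), limma-voom (0.0552), upper-quartile factors (0.113) and the fits that left out shWNK1 replicate 1 (0.427), shWNK1 replicate 2 (0.0907) or NS replicate 1 (0.381). Its exons share 42.8% of their bases with an opposite-strand gene. SEC24A, SEC24B and SEC24D were not called, with log2 changes of 0.04, 0.10 and -0.16. SEC23A and SEC16A were not called either (log2 0.18 and 0.15), but both were called higher without NS replicate 1 (0.0112 and 2.8e-04), as was SEC24B (0.0228). PREB was called lower without it (0.00635), and SEC24D without NS replicate 2 (0.0353).

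COPI, whose coatomer is recruited whole to the membrane by the GTPase ARF1, had 1 fall, 2 rises and 5 genes not called. Its median log2 fold change was 0.03. Falls made up 12.5% and rises 25.0%, against 20.2% and 18.5% of all genes tested. COPA, at 437 and 449 CPM in shWNK1 and 444 and 424 CPM in NS libraries, had a 95% interval of the log2 change from -0.09 to 0.15. ARCN1, the delta subunit, at 318 and 319 CPM against 321 and 306 CPM, had one from -0.09 to 0.14. COPE, COPG1 and COPZ1 were not called either (log2 -0.05, -0.06 and 0.08). Of the other subunits COPB2 fell (138 and 139 CPM in NS, 110 and 118 CPM in shWNK1; log2 -0.28, edgeR adjusted p = 0.0014; 0.108 without shWNK1 replicate 1). COPB1 rose from 110 and 115 to 133 and 125 CPM (log2 0.20, edgeR adjusted p = 0.019), a call lost when either shWNK1 library was left out (0.267 and 0.0825). COPG2, the rarer of the gamma subunits, rose from 40.1 and 34.2 to 46.3 and 46.7 CPM (log2 0.32, SE 0.098, edgeR adjusted p = 0.0087), with adjusted p of 0.0778, 0.0994 and 0.0934 when shWNK1 replicate 1, shWNK1 replicate 2 and NS replicate 2 were left out. Its exons share 14.1% of their bases with other genes.

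LMAN1 showed the largest change of all 47 genes. It encodes ERGIC-53, a lectin that carries glycoproteins from the ER to the Golgi, among them the coagulation factors V and VIII, in a complex with MCFD2. LMAN1 (chromosome 18, 59327823 to 59359265) stood at 176 CPM in each shWNK1 library and at 274 and 264 CPM in the NS libraries, a 1.53-fold fall (log2 -0.61, SE 0.060, edgeR adjusted p = 7.2e-10). MCFD2 was at 78.8 and 81.2 CPM against 89.5 and 88.9 CPM and was not called (log2 -0.16, edgeR adjusted p = 0.096). The KDEL receptors return chaperones that carry the KDEL tail to the ER. KDELR2 fell from 222 and 214 to 172 and 181 CPM (log2 -0.30, SE 0.062, edgeR adjusted p = 1.7e-04). KDELR1 rose from 146 and 160 to 172 and 171 CPM (log2 0.16, edgeR adjusted p = 0.043), a call lost under 6 of the 12 alternatives that test for any change, among them DESeq2 (0.103) and the fits that left out shWNK1 replicate 1 (0.242), shWNK1 replicate 2 (0.25) or NS replicate 1 (0.228).

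Shares of paralogs that serve one step differed between the libraries of the groups in several sets. These shares are of the per-length level, and 2 libraries against 2 cannot go below an exact permutation p of 0.333, so no test is given. Which paralog is the larger can depend on the scale: by CPM, KDELR1 averaged 40.3% and KDELR2 57.4% in NS libraries. The shares named below moved in the same direction between groups by CPM. KDELR1 made up 61.6% and 60.5% of KDEL receptor transcripts after the WNK1 hairpin and 51.7% and 54.7% after NS, while KDELR3 was between 3.03% and 3.55%. SAR1A made up 68.6% and 68.2% of the SAR1 pair in shWNK1 and 60.8% and 63.0% in NS libraries. COPG2 held 32.3% and 32.4% of the gamma subunit pair after the WNK1 hairpin and 26.9% and 26.5% after NS. SEC23A held 25.5% and 24.9% of the SEC23 pair against 22.9% and 22.4%, and SEC11A 44.7% and 46.7% of the SEC11 pair against 42.5% and 41.2%. In these 5 sets the groups did not overlap for the genes named. CPM levels of single genes did not overlap for 68.4% of all genes tested, and no such background was computed for paralog shares. Among the 4 SEC24 genes, the share of SEC24C was 37.0% and 37.6% in shWNK1 and 40.8% and 40.2% in NS libraries. There too the groups did not overlap.

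**Figure D3:**
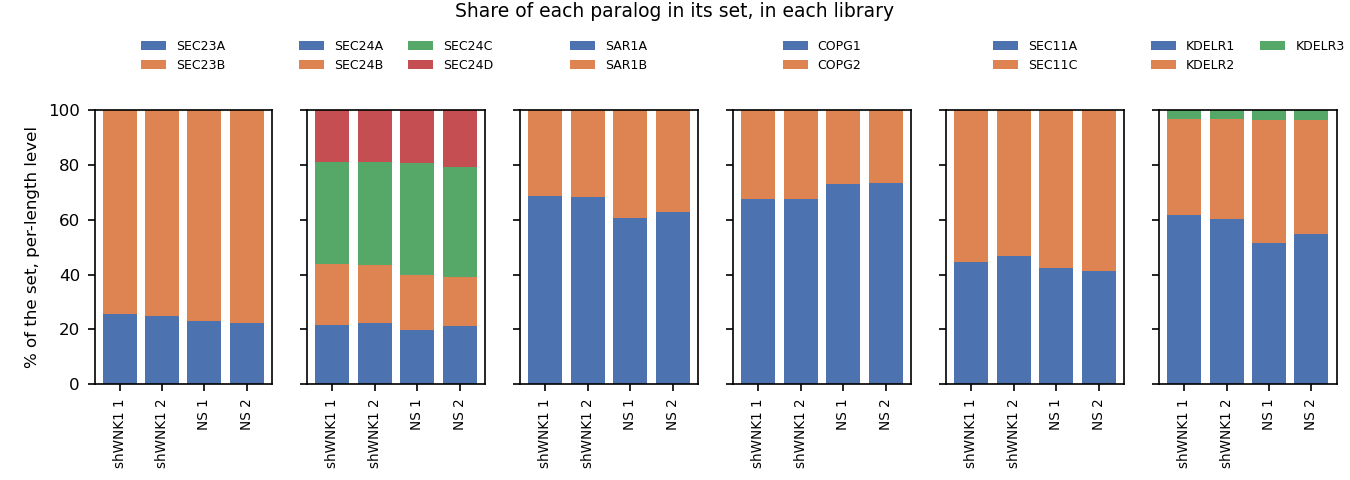
The share of each paralog in the summed per-length level of its set (vertical axis, 0 to 100%), in each of the 4 libraries. The blue block of KDELR1 is taller in the shWNK1 libraries (61.6% and 60.5%) than in the NS libraries (51.7% and 54.7%), and that of COPG1 is shorter.

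Genes that work beside the members were described from lists of neighbouring steps. The counts in these lists stand beside 20.2% falls and 18.5% rises over all genes tested. Among the 6584 genes with a mean at or above that of the lowest member, 32.2% fell and 22.6% rose. The lists were not matched by level to either set. The GET and EMC list had 18.8% of each, close to the shares over all genes tested. Receptors for other cargo leaned the way of LMAN1: of 17, 10 fell (58.8%) and 3 rose (17.6%), with a median log2 fold change of -0.25. TMED9, a p24 family cargo receptor, fell 1.63-fold (348 and 343 CPM in shWNK1, 519 and 606 CPM in NS; log2 -0.70, edgeR adjusted p = 2.2e-10), and ERGIC1, a protein of the ER-Golgi intermediate compartment, fell by 0.55. Their relatives TMED5 (0.24; leaving out shWNK1 replicate 1 gave an edgeR adjusted p of 0.31) and TMED7 (0.30; 0.251 without shWNK1 replicate 1 and 0.0857 without NS replicate 2) rose. Without shWNK1 replicate 1, 5 of the list fell and 0 rose, and without shWNK1 replicate 2, 6 fell and 2 rose.

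Among 13 partners of the translocon 6 fell (46.2%) and 2 rose (15.4%), with a median of -0.12. The ER chaperone HSPA5 (BiP), which SEC63 brings to the channel, fell 1.91-fold, and the translocon subunit NCLN fell by 0.36 (edgeR adjusted p = 1.5e-05). TRAM2, a relative of TRAM1, rose from 443 and 412 to 595 and 626 CPM (log2 0.51, SE 0.058, edgeR adjusted p = 1.3e-08), against the fall of TRAM1. SEC61A2, the scarce paralog of SEC61A1, rose from 93 and 85 counts to 120 and 200 counts (log2 0.67, edgeR adjusted p = 0.013; 0.364 without shWNK1 replicate 2). Of 16 genes of the GET and EMC pathways, which insert membrane proteins without SRP, 3 fell, among them EMC1 (-0.37) and EMC8 (-0.31; edgeR adjusted p = 0.0622 without shWNK1 replicate 2). Another 3 rose, among them EMC10 (0.29; 0.087 without shWNK1 replicate 2 and 0.069 without NS replicate 1) and BAG6 (0.21; 0.189 without shWNK1 replicate 2). Falls in that list numbered 6 without NS replicate 1 and 1 without shWNK1 replicate 2, and rises 0 and 1 without shWNK1 replicate 2 and NS replicate 1.

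ARF4, a GTPase of the family that recruits COPI, had the largest log2 fold change of the neighbouring lists. It fell 3.62-fold, from 123 and 122 CPM in NS to 33.2 and 34.3 CPM in shWNK1 libraries (log2 -1.85, SE 0.080, edgeR adjusted p = 1.6e-18). Of its relatives in the list ARF3 fell by 0.42 and ARF1 by 0.21 (edgeR adjusted p = 7.3e-06 and 0.0039), and ARF5 rose (log2 0.18, edgeR adjusted p = 0.040). The call on ARF1 ended when either shWNK1 library was left out (0.0828 and 0.131). That on ARF5 ended with DESeq2 (0.097), with no filter (0.0896) and when shWNK1 replicate 1 (0.176), shWNK1 replicate 2 (0.275) or NS replicate 1 (0.0781) was dropped. GBF1, the exchange factor that activates ARFs at the early Golgi, rose from 159 and 137 to 225 and 219 CPM (log2 0.58, SE 0.067, edgeR adjusted p = 2.4e-08), and the GTPase-activating protein ARFGAP3 rose by 0.46. Of the 16 genes of this list 6 rose and 4 fell (3 and 3 without shWNK1 replicate 1, 3 and 2 without shWNK1 replicate 2). Of 15 tested COPII accessory and fusion genes 6 rose (40.0%, against 18.5% of all genes tested) and 1 fell (6.67%, against 20.2%), with a median of 0.16. SCFD1, which assists SNARE pairing (0.42; edgeR adjusted p = 0.0756 without shWNK1 replicate 2), and KLHL12, a ubiquitin ligase adaptor acting on SEC31 (0.37; 0.0597 without shWNK1 replicate 1), led the rises, which numbered 2 when either shWNK1 library was left out. The fall, that of the SNARE gene BET1 (edgeR adjusted p = 0.0496), was lost in the absence of shWNK1 replicate 1 (0.122), shWNK1 replicate 2 (0.316) or NS replicate 2 (0.396).

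Clathrin and its adaptors, the third coat system, had 7 rises (33.3%) and 3 falls (14.3%) among 21, with a median of 0.05. Over all genes tested 18.5% rose and 20.2% fell. The heavy chain CLTC was at 604 CPM in NS cells and was not called (log2 0.05, edgeR adjusted p = 0.55). PICALM, which links clathrin to membranes, fell 1.90-fold, and AP3M1, the mu chain of the adaptor AP-3, fell 2.21-fold (78.5 and 71.7 CPM in NS, 36.2 and 32.0 CPM in shWNK1; log2 -1.14, edgeR adjusted p = 7.1e-12). AP3B1 (0.38) and GGA3 (0.35; edgeR adjusted p = 0.0739 without shWNK1 replicate 1) rose. Leaving out shWNK1 replicate 1 gave 1 rise in the list, and leaving out replicate 2 gave 2. Among 9 tested sensors and factors that control ER capacity, 5 fell and 0 rose (2 and 3 falls without shWNK1 replicate 1 and 2). MBTPS1 and MBTPS2, the proteases that release ATF6 and CREB3 factors from the Golgi membrane, fell 1.73-fold and 1.79-fold (log2 -0.79 and -0.84, edgeR adjusted p = 2.0e-11 and 6.5e-07). XBP1 fell by 0.17 (edgeR adjusted p = 0.020), a call lost without shWNK1 replicate 1 (0.208) or replicate 2 (0.174).

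**Figure D4:**
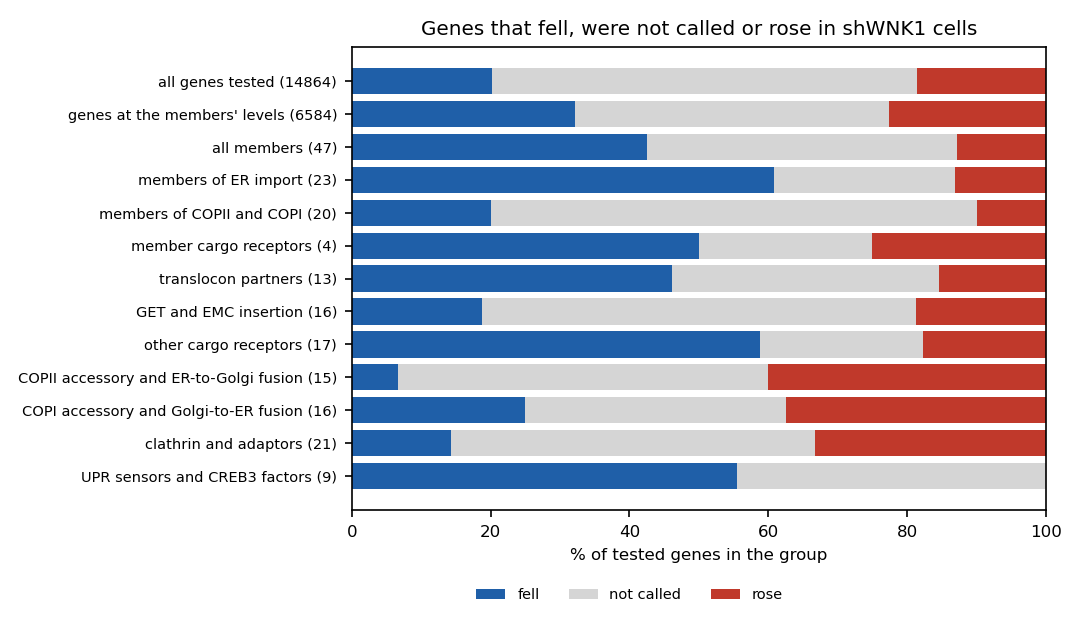
The percentage of tested genes that fell (blue), were not called (grey) or rose (red) in shWNK1 cells, with the number of genes in brackets. The bar labelled as genes at the members' levels holds the 6584 genes with a mean at or above that of the lowest member. These were not matched to the members: their median per-length level in NS cells was 47.9, against 83.7 for the members. Members of ER import had 60.9% falls, the COPII and COPI coats 20.0%, and all genes tested 20.2%.

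Promoters were searched because many genes of this machinery are targets of the unfolded protein response. RefSeq windows from 250 bases before to 50 bases after each annotated start (GRCh38.p14) were available for 42 members, with 58 windows. The 8-base element TGACGTGG, a core bound by XBP1, ATF6 and related bZIP factors, was found on either strand in a window of 10 of the 42 genes (23.8%), against 1.2% of 10536 tested genes and 0.927% of all 27305 genes searched. Counted by window, 11 of 58 (19.0%) held it against 0.729% of all 35116. The full ER stress element, CCAAT and CCACG spaced by 9 bases, was in none of the 42 and in 0.123% of tested genes. CCACG alone, which lies within the reverse complement of TGACGTGG, was in 37 of 42 (88.1%) against 57.0% of tested genes. Those 30-base windows around TGACGTGG are shown that belong to coat genes and to TRAP genes, read 5′ to 3′ on the strand of the gene, with the element or its reverse complement in capitals:

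COPA, chr1:160343227-160343256, minus strand: gagagggtcgcTGACGTGGaggcgtccgaa

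SEC23A, chr14:39103221-39103250, minus strand: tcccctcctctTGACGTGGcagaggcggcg

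SEC24A, chr5:134648595-134648624, plus strand: gtgagagtcggTGACGTGGcggcgaggccg

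SEC16A, chr9:136484707-136484736, minus strand: tggccctggtgCCACGTCAgccggactgaa

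COPB1, chr11:14499841-14499870, minus strand: cccacccccttCCACGTCAgccaaggactc

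COPB2, chr3:139389825-139389854, minus strand: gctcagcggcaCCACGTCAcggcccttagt

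COPB2, chr3:139389632-139389661, minus strand: tcccggaagttCCACGTCAgtcagtctgac

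SSR3, chr3:156554148-156554177, minus strand: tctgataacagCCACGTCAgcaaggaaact

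SSR4, chrX:153794528-153794557, plus strand: tcagggaggggCCACGTCAgtgctgccaga

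SEC62 and SRP19 held it once each. Carriers of the element were split between calls: 2 of the 10 fell (SSR3 and COPB2), 2 rose (SSR4 and COPB1) and 6 were not called, with a median log2 fold change of 0.03. The 32 searched members without it had 16 falls, 3 rises and a median of -0.17. A match describes the letters only.

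The 6-base word AGTATC, known from an earlier look at these data to be more frequent in 3′ UTRs of falling genes and so no independent evidence, was counted in the longest annotated 3′ UTR of each gene (GENCODE v29). It was in 11 of the 47 members (23.4%), close to the 23.3% of 11880 tested genes searched. Of the 11 carriers 5 fell (45.5%), 0 rose and 6 were not called, with a median log2 fold change of -0.20. Of the 36 others 15 fell (41.7%), 6 rose and 15 were not called, with a median of -0.13. LMAN1, SSR3, SPCS3, SEC13 and SEC61B fell without the word. In the neighbouring lists, of 27 carriers 15 fell (55.6%) and 5 rose, and of 80 others 17 fell (21.3%) and 22 rose. ARF4, AP3M1, PICALM, MBTPS1, MBTPS2 and ERGIC1 were carriers, while HSPA5 (log2 -0.93) and TMED9 (log2 -0.70) fell without the word. Over all genes searched 33.7% of carriers and 20.5% of others fell. UTR length moved with the word, at a median of 1820 bases in member carriers against 964 in the others, 3415 against 917.5 in the neighbouring lists, and 3074 against 1030 over all genes, and its part was not tested. The sites in members with the strongest falls among carriers, and those in ARF4, are shown with the word in capitals, read 5′ to 3′:

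SRP9, 746 bases into the 3′ UTR: gggatttgtAGTATCagcttgttg

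SSR1, at 4086: taagagtgaAGTATCtgctcttgg

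SSR1, at 5029: tatgcttgaAGTATCagccctaaa

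SRP72, at 880: gaagaaatcAGTATCtgagttgca

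SAR1B, at 180: gtaagtttgAGTATCacaatgtta

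ARF4, at 90: ttattaaacAGTATCtgggactgg

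ARF4, at 211: tgggaaaaaAGTATCctcttttaa

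SAR1B held the word 3 times, and its paralog SAR1A, which was not called, held it once.

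**Figure D5:**
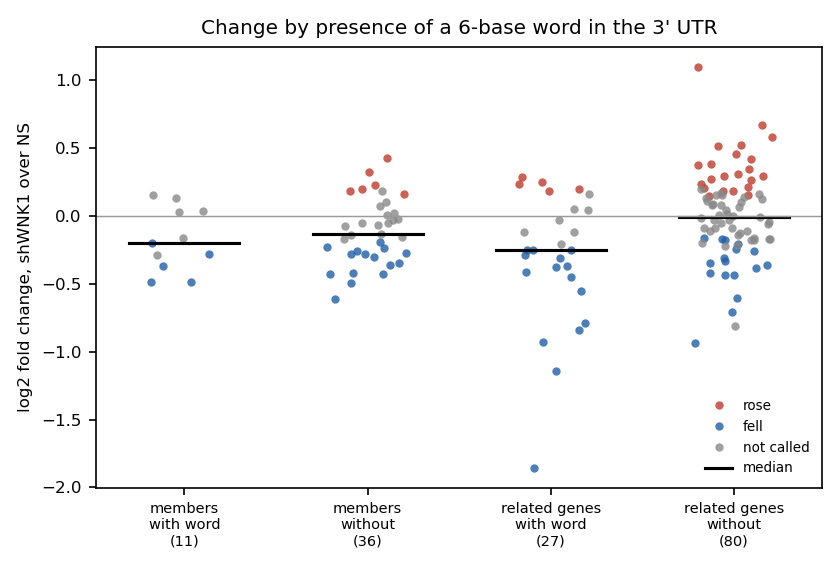
The log2 fold change (vertical axis, shWNK1 over NS) of members and of genes in the neighbouring lists, with or without the 6-base word in the 3′ UTR, coloured by call, with black bars at the medians and the number of genes in brackets. Member medians are -0.20 with and -0.13 without the word, and those of the neighbouring lists are -0.25 and -0.0029.

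The NS libraries differed from each other more than the shWNK1 libraries did, and the difference ran with gene length among the members. The median absolute log2 ratio between replicates was 0.09 in NS and 0.07 in shWNK1 cells over the 47 genes. NS replicate 2 was above NS replicate 1 for short transcripts such as SEC61B (0.25) and SEC61G (0.23). SEC24B had the largest difference (-0.33) at an exon length of 5219 bases, while the longest member, SSR1 (11349 bases), was at -0.05. Across the 47 genes the log2 ratio of NS replicate 2 over replicate 1 and the exon length had a Spearman rho of -0.48, a description over genes of the same 2 libraries. Over all 14864 genes tested it was -0.19, and for the shWNK1 libraries it was 0.12 over the members. The log2 fold change between groups itself had a rho of -0.07 with length over the members.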

How the data were processed

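Raw counts per gene were deposited. Per the file headers, the authors obtained these counts with featureCounts and GENCODE v34, ignoring strand, from read pairs whose 2 ends both mapped (quality minimum 20, no chimeras). Trimmomatic, STAR and hg38 are named in the submitters' processing notes, with no versions. Samples were grouped by title; that of shWNK1 replicate 2 spells the gene shNWK1, and its treatment label reads shWNK1. One gene broken over 3 lines and 45 Y copies of pseudoautosomal genes were left out. In edgeR 4.0.16 (R 4.3.3), genes passing filterByExpr were scaled by TMM and tested two-sided with glmQLFTest, with group as the only term, 2 residual degrees of freedom and Benjamini-Hochberg adjustment over all genes tested. The script was tested on simulated data. Standard errors are those the F statistic gives, and 95% intervals use its degrees of freedom, unadjusted for the number of genes. A floor of 3 counts is 0.146 to 0.177 CPM and covers counting error only. Per-length levels are counts over the exon length of the table, scaled to a total of 1000000 in each library.

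Members and lists were chosen with earlier results of these data known, and the grouping into ER entry and coats was made from their roles. Named genes were all members, WNK1, and up to 2 rising and 2 falling genes of each list by smallest p. The plasma cell markers, EPCAM, KRT18, PAX5, CLTC, ARF1, ARF5, RN7SL2, RN7SL3 and KDELR3 were added after their values were seen. Values in every library were given for called members changed by 1.5-fold or more and the 2 smallest p of each complex, and for others after their values were seen. Alternatives were DESeq2 1.42.0, limma-voom (limma 3.58.1), RLE and upper-quartile factors, no filter, a minimum of 1 CPM in 2 libraries, a block for replicate number, immunoglobulin and mitochondrial genes left out, a test against 1.5-fold, and each library left out in turn, where a lone library is assumed to vary like the other group. Protein sequences were not used here.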

Additional observations from a re-analysis of the deposited data

How the results depend on the processing

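Over all genes tested, 303 rises and 353 falls passed the test against 1.5-fold, while 0 members rose and 0 fell in any complex. In the neighbouring lists 1 translocon partner (HSPA5), 1 COPI accessory gene (ARF4) and 1 ER sensor gene fell in that test, 0 genes rose, and the falls of the 7SL RNA, GET and EMC, COPII accessory and other cargo receptor lists came to 0. With DESeq2, rises numbered 3 among the members, 1 in the coats (1 in COPI), 0 in TRAP and 0 among the cargo receptors, 1 among translocon partners, 3 (with 0 falls) among COPII accessory genes, 1 among other cargo receptors and 3 among clathrin genes. TRAP rises were 0 with RLE factors and with limma-voom, and COPII accessory falls were 0 with limma-voom. With no filter, rises were 0 in TRAP, 0 among cargo receptors and 4 among clathrin genes, and COPII accessory falls were 0. With upper-quartile factors, rises were 4 in the coats (2 in COPII) and 1 among ER sensors, and falls were 3 among ER sensors and 0 among COPII accessory genes. Replicate numbers were not taken to pair libraries: deviations of same-numbered libraries had a correlation of -0.0047. With a replicate block 2539 genes rose and 2804 fell, members numbered 4 rises and 19 falls, TRAP rises were 0, cargo receptor rises 0, COPII accessory falls 0 and clathrin rises 4, and SSR4, SEC24C and KDELR1 lost their calls (edgeR adjusted p = 0.0822, 0.0915 and 0.0662).

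With 1 library left out, 1632 to 2778 genes rose and 1964 to 3024 fell. Member rises ranged from 1 to 7 and falls from 11 to 22, ER entry rises from 1 to 3 and falls from 8 to 16, and coat rises from 0 to 5 and falls from 1 to 5. By complex, SRP receptor rises and falls ranged from 0 to 1, translocon falls from 3 to 5, TRAP rises from 0 to 1, signal peptidase falls from 1 to 4, COPII rises from 0 to 3 and falls from 1 to 4, COPI rises from 0 to 2 and falls from 0 to 1, and cargo receptor rises from 0 to 1. In the neighbouring lists, translocon partner rises ranged from 1 to 2, GET and EMC rises from 0 to 3 and falls from 1 to 6, COPII accessory rises from 2 to 6 and falls from 0 to 1, COPI accessory rises from 3 to 5 and falls from 2 to 5, other cargo receptor rises from 0 to 3 and falls from 5 to 11, clathrin rises from 1 to 7, and ER sensor rises from 0 to 1 and falls from 2 to 5. With 1 library left out, the median log2 change of the 7SL RNA list, which has 2 tested entries, ranged from -0.56 to 0.33. That of the GET and EMC genes ranged from -0.17 to 0.080. Both medians were above 0 only without NS replicate 2, and the cause was not tested. In the 7SL RNA list, RN7SL3 had 19 counts in NS replicate 1 and 56 in NS replicate 2. The members' median stayed between -0.18 and -0.12 over all settings, but medians of single complexes moved further. That of signal peptidase was -0.17 in the main fit, -0.28 without NS replicate 1 and -0.05 without NS replicate 2. That of SRP was -0.26 in the main fit and -0.18 without NS replicate 1. No other count moved by more than 1.5 times. With 2 libraries a group, and fewer when one is left out, a change as small as most of these can be missed.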
